A study of Mus musculus with 12 samples.

Results

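The cluster of mir-322, mir-503 and the mir-450 hairpins is a group of miRNA hairpins on the mouse X chromosome, and its levels were examined here in sperm of mice on a control or a high-fat diet and in the TM4 Sertoli cell line. Its 7 members, mmu-mir-322, mmu-mir-503, mmu-mir-351, mmu-mir-542, mmu-mir-450a-2, mmu-mir-450a-1 and mmu-mir-450b, were selected by name from the 1050 hairpins with a read in any of the 12 small RNA libraries. Their levels in these same libraries were known when they were selected. The members' values, and the calls at an adjusted p threshold, are therefore given as a description, without p-values. The question is whether the members move together. Sperm came from C57BL6/J males that received, for 7 weeks from 4 weeks of age, either a control diet (CD) with 16% of its energy from fat or a high-fat diet (HFD), and each of the 3 CD and 3 HFD libraries pooled the sperm RNA of 3 samples. The labels give the fat share of the HFD as 69%. The methods of the study give a lower share for the same diet, and another passage gives a later age at its start. TM4 is a mouse line kept as a model of Sertoli cells, the somatic cells that nurse germ cells in the seminiferous tubule. It was sequenced in 2 libraries each as control cells (Ctrl), as cells exposed to 10 µM Compound C for 12 h (CC), and as cells that overexpressed angiogenin from a plasmid (Ang OE). Compound C inhibits the energy sensor AMPK, and angiogenin is a ribonuclease that cleaves tRNAs. The control cells are described as non-treated, so effects of the plasmid, of transfection or of a solvent cannot be told apart from those of angiogenin or Compound C. Nothing states that the libraries of a TM4 group came from separate cultures, so the spread within a group may be technical.

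A miRNA hairpin is cut by Drosha and Dicer into short arms, and an arm loaded into Argonaute pairs with target mRNAs mainly through its seed, bases 2 to 8. Hairpins that lie close together on a strand are often cut from a single primary transcript, which is why members of a cluster are commonly found to move together, although each hairpin is processed, and each arm decays, at its own rate. miR-322 is the mouse counterpart of human miR-424, and with miR-503 it belongs to the wider group of miR-15 and miR-16, which is best known for repressing cyclins and other genes of cell cycle entry. miR-351 belongs to the miR-125 group by its seed.

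All 7 hairpins lie on the minus strand of chromosome X within 6353 bases, chrX:53047997-53054349 in GRCm38.p6 (RefSeq). In the direction of transcription, mmu-mir-322 (chrX:53054255-53054349), mmu-mir-503 (chrX:53053984-53054054) and mmu-mir-351 (chrX:53053255-53053353) come first and are called upstream members here. A gap of 3767 bases, the longest in the cluster, separates mmu-mir-351 from mmu-mir-542 (chrX:53049403-53049487). The last 3 hairpins, mmu-mir-450a-2 (chrX:53048299-53048367), mmu-mir-450a-1 (chrX:53048154-53048244) and mmu-mir-450b (chrX:53047997-53048078), follow within 6271 bases of the start of mmu-mir-322 and are called, with mmu-mir-542, the 4 downstream members. The 3 upstream hairpins overlap the RefSeq gene C430049B03Rik, and in GENCODE vM39 they overlap exons of the long non-coding RNA Mir503hg. No other gene of either annotation overlaps the 4 downstream hairpins. The division into upstream and downstream members was made after their values had been seen.

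The mature arms that follow, from the RefSeq annotation (GRCm38.p6), are shown because they decide which reads of the members can be told apart and which other miRNAs share their seed. Capitals mark the seed, and each sequence runs 5′ to 3′. miR-322-5p carries the seed of miR-16-5p, and the seed of miR-503-5p is identical to it at 6 of 7 positions.
miR-322-5p: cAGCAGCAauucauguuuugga
miR-503-5p: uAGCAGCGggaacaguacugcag
miR-16-5p: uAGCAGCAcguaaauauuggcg

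The seed of miR-351-5p is that of miR-125b-5p, from an unlinked gene.
miR-351-5p: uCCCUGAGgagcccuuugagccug
miR-125b-5p: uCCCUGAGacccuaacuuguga

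The downstream hairpins carry other seeds. Both mir-450a hairpins give the same 5p arm, which is identical to miR-450b-5p at 15 of 22 positions, and at 5 of 7 in the seed, whereas miR-450a-1-3p and miR-450b-3p share their seed and 20 of 22 positions.
miR-450a-5p: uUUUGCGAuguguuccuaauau
miR-450b-5p: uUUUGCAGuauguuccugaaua
miR-450a-1-3p: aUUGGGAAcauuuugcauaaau
miR-450b-3p: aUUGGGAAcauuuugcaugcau
miR-542-3p: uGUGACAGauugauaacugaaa
miR-542-5p: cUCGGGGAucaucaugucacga

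The deposited tables count reads by hairpin, with both arms together, so no value below belongs to a single arm. Reads of the identical miR-450a-5p arm were divided between the mir-450a hairpins, and the ratio of mmu-mir-450a-1 to mmu-mir-450a-2 was between 0.92 and 1.04 in all 12 libraries, so these hairpins are not independent measurements. Levels are given as CPM, reads per 1000000 miRNA reads of the library. They are compared between hairpins without scaling by length, since the arms shown here have similar lengths.

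The libraries held 31710445 to 64038150 clean reads, of which 11412945 to 14822686 were miRNA reads in sperm and 27651384 to 35704399 in TM4 cells. Replicates differed by more than counting noise in each group. The sperm libraries held the listed germ cell hairpins at a summed 3170 to 9014 CPM, with all 9 detected, but also the 5 listed epithelial hairpins (mir-200a, mir-200b, mir-200c, mir-141 and mir-429) at 8946 to 14327 CPM, the red blood cell hairpins at 25239 to 50595 CPM, the white blood cell hairpins at 580 to 1422 CPM, the 4 mesenchymal hairpins (mir-199a-1, mir-199a-2, mir-199b and mir-214) at 1635 to 2370 CPM and the muscle hairpins, chiefly mir-143, at 30652 to 56169 CPM. The part of these other cells in the sperm values of the cluster was not tested, and in such bulk RNA fewer cells of a type and less RNA per cell cannot be told apart. In the TM4 libraries mmu-mir-202, the listed Sertoli cell hairpin, was at 0 to 0.18 CPM and thus nearly absent. The mesenchymal hairpins were at 15607 to 19343 CPM there, the muscle hairpins, again chiefly mir-143, at 49717 to 129041 CPM, the red blood cell hairpins at 1762 to 2857 CPM and the germ cell hairpins, chiefly mir-34c, at 934 to 2045 CPM. The epithelial ones were at 1.28 to 2.38 CPM and the white blood cell ones at 2.23 to 4.30 CPM.

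The cluster as a whole was far more abundant in TM4 cells than in sperm, and most of its reads came from mmu-mir-351. Summed over the 7 members, the level was 280 ± 54.6 CPM (SD, n = 3) in CD sperm, 241 ± 8.21 CPM (n = 3) in HFD sperm, 5133 ± 76.6 CPM (n = 2) in Ctrl, 4531 ± 502 CPM (n = 2) in CC and 4129 ± 405 CPM (n = 2) in Ang OE cells. mmu-mir-351 alone gave 76.9% to 82.8% of the cluster's reads in sperm libraries and 62.8% to 80.3% in TM4 libraries, and mmu-mir-322 gave 11.2% to 14.1% in sperm and 11.5% to 17.0% in TM4 cells. The summed level therefore follows mmu-mir-351, and the members are described one by one.

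**Figure D1:**
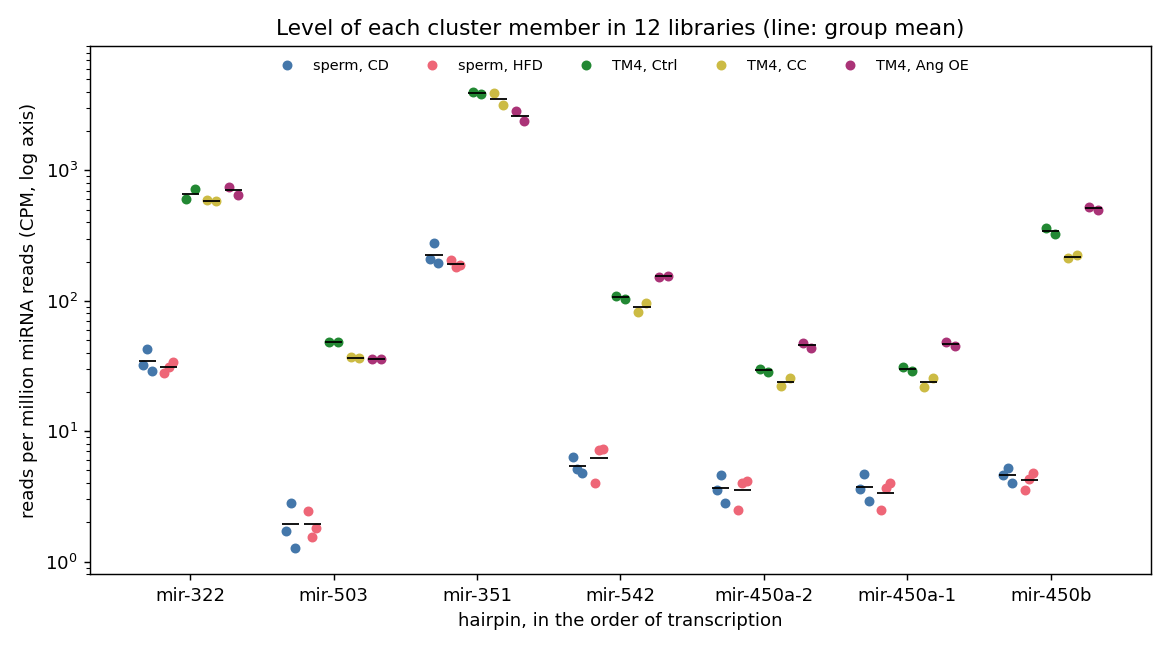
Reads per 1000000 miRNA reads (CPM, log axis) of each hairpin, in the order of transcription, with a point for each of the 12 libraries and a line for each group mean. All 7 hairpins lie higher in each TM4 library than in any sperm library, mmu-mir-351 is the most abundant in every group, and Ang OE libraries lie above Ctrl for the 4 downstream hairpins.

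Among the upstream members, mmu-mir-351 was the most abundant hairpin of the cluster in each library. It stood at 209, 277 and 193 CPM in CD libraries 1, 2 and 3, and at 206, 181 and 187 CPM in HFD libraries 1, 2 and 3. In TM4 cells it stood at 4010 and 3821 CPM in Ctrl, 3922 and 3190 CPM in CC, and 2855 and 2411 CPM in Ang OE. The diets overlapped, as did Ctrl and CC, while both Ang OE libraries lay below every other TM4 library.

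For mmu-mir-322, the second most abundant member, CD libraries held 32.3, 42.6 and 28.9 CPM and HFD libraries 27.9, 31.2 and 34.2 CPM. The TM4 libraries held 599 and 725 CPM in Ctrl, 590 and 578 CPM in CC, and 749 and 653 CPM in Ang OE. Of the treatments only CC lay apart from Ctrl, and by a margin smaller than the distance between the Ctrl libraries.

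mmu-mir-503 was the scarcest member in sperm, with 17 to 34 reads per library. Its level was 1.72, 2.80 and 1.28 CPM in CD and 2.44, 1.53 and 1.82 CPM in HFD libraries, and the exact 95% Poisson interval of the lowest of these, 0.743 to 2.04 CPM, contains 3 of the other 5 values. In TM4 cells it stood at 48.6 CPM in each Ctrl library, 36.8 and 36.3 CPM in CC, and 36.1 and 35.7 CPM in Ang OE. Ctrl lay above both treatments, with CC slightly above Ang OE.

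Among the downstream members, mmu-mir-542 stood at 6.37, 5.17 and 4.80 CPM in CD and at 4.01, 7.19 and 7.35 CPM in HFD libraries. Its TM4 levels were 109 and 104 CPM in Ctrl, 81.8 and 96.6 CPM in CC, and 152 and 155 CPM in Ang OE, without overlap between any of these groups. mmu-mir-450a-2 followed the same order, with 30.1 and 28.6 CPM in Ctrl, 22.1 and 25.4 CPM in CC, and 47.8 and 43.7 CPM in Ang OE, after 3.54, 4.64 and 2.81 CPM in CD and 2.47, 4.00 and 4.12 CPM in HFD sperm. mmu-mir-450a-1, which shares its 5p reads, had 31.1 and 29.2 CPM in Ctrl, 21.9 and 25.6 CPM in CC, and 48.6 and 45.3 CPM in Ang OE, after 2.89 to 4.73 CPM in CD and 2.47 to 3.98 CPM in HFD sperm.

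mmu-mir-450b, the last hairpin, stood at 4.65, 5.26 and 3.98 CPM in CD and at 3.51, 4.28 and 4.79 CPM in HFD libraries. In TM4 cells it stood at 360 and 323 CPM in Ctrl, 212 and 224 CPM in CC, and 526 and 498 CPM in Ang OE. These 3 groups did not overlap, and the distance between group means was larger than the distance between libraries of any group.

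The order of the members differed between the kinds of sample. In Ctrl cells the group means ran from mmu-mir-351 at 3916 ± 134 CPM (SD, n = 2) through mmu-mir-322 at 662 ± 89.3, mmu-mir-450b at 341 ± 26.0, mmu-mir-542 at 106 ± 3.72 and mmu-mir-503 at 48.6 ± 0.0286 to the mir-450a hairpins at 30.1 ± 1.38 and 29.4 ± 1.04 CPM. Only the mir-450a hairpins were neighbours that did not differ beyond their spread. In CD sperm the means ran from mmu-mir-351 at 226 ± 44.4 CPM (SD, n = 3) through mmu-mir-322 at 34.6 ± 7.12 to mmu-mir-542 at 5.45 ± 0.817, mmu-mir-450b at 4.63 ± 0.640, mmu-mir-450a-1 at 3.74 ± 0.928, mmu-mir-450a-2 at 3.67 ± 0.921 and mmu-mir-503 at 1.93 ± 0.786 CPM. From mmu-mir-542 to mmu-mir-450a-2 the libraries of each member overlapped with those of the next, as 4.80 to 6.37 CPM for mmu-mir-542 and 3.98 to 5.26 CPM for mmu-mir-450b. Thus mmu-mir-503 moved from the last place in sperm to above the mir-450a hairpins in Ctrl cells, and mmu-mir-450b from the level of its neighbours to several times theirs. Among all hairpins ranked by reads in a library, mmu-mir-351 held places 99 to 109 in sperm and 39 to 46 in TM4 cells, and mmu-mir-503 places 349 to 389 and 162 to 169.

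Ctrl TM4 cells and CD sperm were compared to see how unequally the members differ between the 2 kinds of sample, which also differ in tissue, preparation and depth. All 7 members passed the filter of 10 reads in the CD as in the Ctrl libraries. They were higher in both Ctrl libraries than in every CD library, where 59.7% of the 590 hairpins tested were higher in that sense. In CPM the difference was 73.8-fold for mmu-mir-450b, 25.2-fold for mmu-mir-503, 19.5-fold for mmu-mir-542, 19.1-fold for mmu-mir-322, 17.3-fold for mmu-mir-351 and 8.0-fold for each mir-450a hairpin. The summed cluster was 18.3-fold higher.

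With trimmed mean scaling (TMM), which centres the bulk of the hairpins and moves their median log2 difference from 1.47 with the total miRNA reads to 0.13, the differences were smaller. The log2 fold change was 4.87 ± 0.19 (SE) for mmu-mir-450b, 3.34 ± 0.27 for mmu-mir-503, 2.94 ± 0.23 for mmu-mir-542, 2.93 ± 0.17 for mmu-mir-322 and 2.79 ± 0.14 for mmu-mir-351. The mir-450a hairpins had 1.70 ± 0.23 and 1.67 ± 0.23. These sizes rose when either Ctrl library was left out, and also with all libraries kept and no filter. With no filter, mmu-mir-450b had 5.51, mmu-mir-322 3.59 and mmu-mir-351 3.43. Without Ctrl library 1 or 2, mmu-mir-450b had 5.69 or 5.81, mmu-mir-542 3.80 or 3.83, mmu-mir-322 3.96 or 3.65, mmu-mir-351 3.65 or 3.68, mmu-mir-450a-1 2.54 or 2.60 and mmu-mir-450a-2 2.53 or 2.56, and mmu-mir-503 had 4.24 without library 1 and a nearly equal value without library 2. In those fits 455 and 454 hairpins were tested instead of 590, and their median was -0.09 and -0.06. With all libraries, all 7 passed an adjusted p of 0.05 in edgeR's quasi-likelihood test, as did 36.4% of all hairpins in this direction and 40.7% in the other, that is 215 higher and 240 lower. With the total miRNA reads as library size the calls over all hairpins were 342 higher and 194 lower. The members' shared direction is therefore also that of much of the table, whereas their unequal size does not depend on scaling. Within the cluster, the reads of mmu-mir-450b were 0.56 to 0.71 times those of both mir-450a hairpins in the 6 sperm libraries and 4.40 to 5.88 times in the 6 TM4 libraries. Since the tables add both arms, it is not known which arm of mmu-mir-450b carried these reads.

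Under the HFD no member of the cluster differed from the CD beyond the spread between libraries. The CD and HFD libraries overlapped for all 7 members, and the fitted changes were small, from a log2 fold change of -0.34 ± 0.17 (SE) for mmu-mir-351 to 0.07 ± 0.31 for mmu-mir-542. The others had -0.25 ± 0.20 for mmu-mir-322, -0.08 ± 0.31 for mmu-mir-503, -0.16 ± 0.29 for mmu-mir-450a-2, -0.23 ± 0.28 for mmu-mir-450a-1 and -0.25 ± 0.23 for mmu-mir-450b. edgeR called 0 of 7 members and 0% of the 449 hairpins tested at an adjusted p under 0.05, with 31 hairpins at an unadjusted p under 0.05, and DESeq2 called 1 hairpin higher and 11 lower, none of them a member. The median log2 fold change was -0.23 over the members and -0.01 over all hairpins. The signs of mmu-mir-503, mmu-mir-542 and the mir-450a hairpins turned when 1 library was left out, so no direction is given for them.

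Between sperm libraries the highest and lowest values of the members gathered in a pair of libraries. CD library 2 was the highest of the 6 sperm libraries for 6 of 7 members, the exception being mmu-mir-542, and HFD library 1 was the lowest for 5 of 7. The mir-450a hairpins share reads, and how often these libraries were the extremes over all hairpins was not counted. CD library 2 also held the highest sums of the germ cell hairpins, 9014 CPM against 3170 to 5204 CPM in the other sperm libraries, and of mmu-mir-202, 59.8 CPM against 4.86 to 19.6 CPM. HFD library 1 held the highest sums of the red blood cell hairpins, 50595 CPM against 25239 to 36163 CPM, and of the white blood cell hairpins, 1422 CPM against 580 to 917 CPM. The part of these in the members' levels was not tested. Without CD library 2 the median log2 fold change of the members was -0.07, and without HFD library 1 it was -0.04.

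In CC-treated TM4 cells each member had a lower mean than in Ctrl, and mmu-mir-450b was the member with the largest difference. Its level fell from 341 ± 26.0 to 218 ± 8.61 CPM (SD, n = 2 each), a log2 fold change of -0.64 ± 0.11 (SE), or 0.64 times the Ctrl level. mmu-mir-503 had -0.40 ± 0.13, the mir-450a hairpins -0.34 ± 0.13 and -0.30 ± 0.13, mmu-mir-542 -0.25 ± 0.12, mmu-mir-322 -0.18 ± 0.12 and mmu-mir-351 -0.13 ± 0.11. Both CC libraries lay below both Ctrl libraries for 6 of 7 members, all but mmu-mir-351, where 24% of the 533 hairpins tested were lower in that sense.

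At an adjusted p under 0.05 edgeR called mmu-mir-450b alone lower, 1 of 7 members, where it called 1.88% of all hairpins lower and 2.25% higher, 10 and 12 hairpins. The median log2 fold change was -0.30 over the members and -0.03 over all hairpins. The call, though not the size of the change, depended on CC library 2: without it edgeR called no hairpin and 69 had an unadjusted p under 0.05, while mmu-mir-450b still had a log2 fold change of -0.67 ± 0.12. DESeq2 called 2 members lower with all libraries, where it called 11 of 533 hairpins lower. mmu-mir-351 changed sign to 0.018 without that library, and mmu-mir-322 moved to -0.011 without Ctrl library 2 and to -0.33 without Ctrl library 1.

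In Ang OE cells the cluster did not move as a unit: the 4 downstream members were higher than in Ctrl, while mmu-mir-351 was lower. The calls of mmu-mir-351 and mmu-mir-322 depended on single libraries, and those of mmu-mir-322 and mmu-mir-503 on scaling. mmu-mir-450b was at 512 ± 20.0 CPM against 341 ± 26.0 CPM in Ctrl (SD, n = 2 each), mmu-mir-542 at 154 ± 2.01 against 106 ± 3.72, mmu-mir-450a-1 at 47.0 ± 2.33 against 30.1 ± 1.38 and mmu-mir-450a-2 at 45.7 ± 2.91 against 29.4 ± 1.04 CPM. mmu-mir-351 was at 2633 ± 314 against 3916 ± 134 CPM. Both Ang OE libraries lay above both Ctrl libraries for 4 of 7 members, where 25.1% of the 533 hairpins were higher in that sense, and below them for 2 of 7, mmu-mir-351 and mmu-mir-503, where 45.2% were lower.

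The fitted log2 fold changes were 0.81 ± 0.12 (SE) for mmu-mir-542, 0.91 ± 0.13 for mmu-mir-450a-2, 0.92 ± 0.13 for mmu-mir-450a-1 and 0.86 ± 0.11 for mmu-mir-450b, which lie within 1 SE of each other. They were 0.35 ± 0.12 for mmu-mir-322, -0.16 ± 0.13 for mmu-mir-503 and -0.30 ± 0.11 for mmu-mir-351. edgeR called 5 members higher, where it called 24.2% of all hairpins higher (129), and 1 lower, mmu-mir-351, where it called 14.1% lower (75). The median was 0.81 over the members and 0.06 over all hairpins.

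Scaling matters in this comparison, because with the total miRNA reads as library size the median of all hairpins was -0.21 and the calls were 81 higher and 139 lower. The 4 downstream members were then still called higher, with a median of the 7 members of 0.54, whereas mmu-mir-322 at 0.08 was not called and mmu-mir-503 at -0.44 was called lower. Over the 17 settings tried, the log2 fold change of mmu-mir-542 lay between 0.54 and 0.84, and it was called in all of them. mmu-mir-322 stayed positive but was called in 9 of 17, with 0.20 without Ctrl library 1, 0.21 without Ang OE library 1 and 0.53 without Ctrl library 2, and mmu-mir-351 stayed negative and was called in 12 of 17. It was not called without Ctrl library 1 (-0.29), Ctrl library 2 (-0.30) or Ang OE library 2 (-0.24), with no filter (-0.27), or with the replicate block in a model of Ctrl and Ang OE alone (-0.35). In the same libraries mmu-mir-143, the most abundant of the muscle hairpins, stood at 110497 CPM in Ang OE against 51449 CPM in Ctrl cells. Its part in the members' values was not tested.

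**Figure D2:**
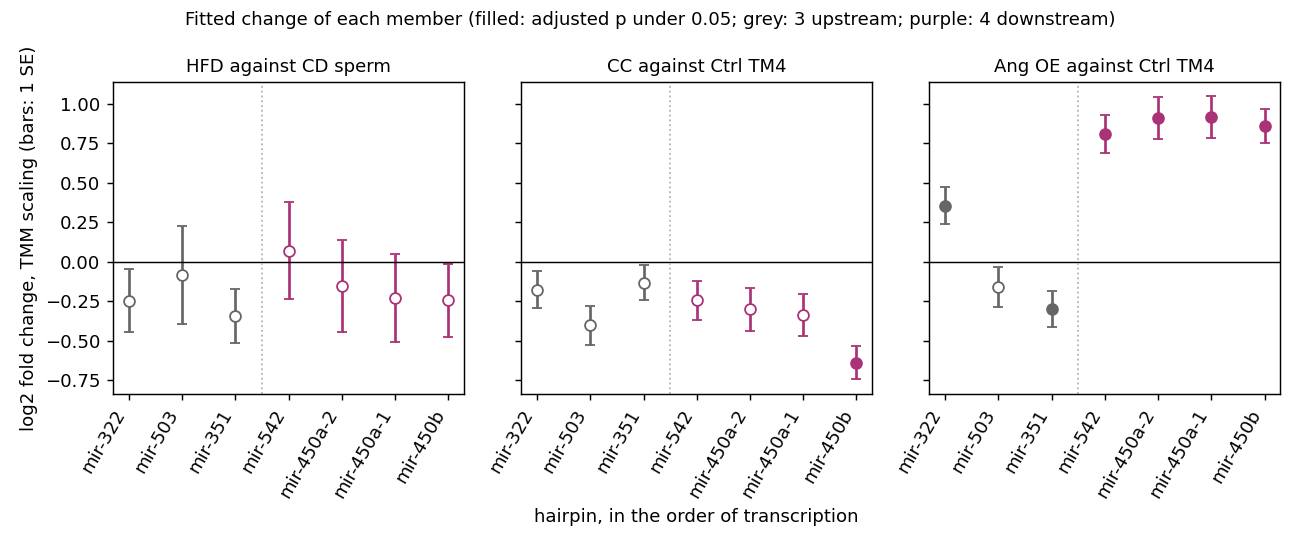
Log2 fold change with TMM scaling (bars, 1 SE) of each hairpin, in the order of transcription, for HFD against CD sperm, CC against Ctrl TM4 cells and Ang OE against Ctrl TM4 cells; filled points passed an adjusted p of 0.05, grey marks the 3 upstream and purple the 4 downstream members. In Ang OE the downstream members lie between 0.81 and 0.92 and the upstream members between -0.30 and 0.35, while in CC all 7 lie below 0.

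Ratios of reads within a library do not depend on its scaling. The ratio of the summed downstream to the summed upstream reads shows the same division. In the TM4 libraries these sums rest mostly on mmu-mir-450b and mmu-mir-351. The reads of the 4 downstream members were 0.213 and 0.239 times those of the 3 upstream members in the Ang OE libraries. They were 0.114 and 0.105 times in Ctrl, 0.0743 and 0.0977 times in CC, and 0.0528 to 0.0908 times in the 6 sperm libraries. Both Ang OE libraries thus lay above the other 10, about 2 times as high as Ctrl, and the CC libraries lay below Ctrl. For mmu-mir-542 over mmu-mir-322 the ratio was 0.203 and 0.238 in Ang OE and 0.182 and 0.143 in Ctrl. In sperm it was 0.121 to 0.230, which overlaps Ang OE.

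Within the upstream members, mmu-mir-322 had 0.262 and 0.271 times the reads of mmu-mir-351 in Ang OE, where the other 10 libraries had 0.135 to 0.190 times, with Ctrl at 0.149 and 0.190. The division is therefore not only one between the upstream and downstream hairpins, since mmu-mir-322 and mmu-mir-351, whose starts lie 996 bases apart, also shifted against each other. Set against mmu-mir-322 and mmu-mir-503 alone, the 4 downstream members had 0.987 and 1.08 times their reads in Ang OE, 0.819 and 0.626 times in Ctrl, and 0.539 and 0.606 times in CC. Within the downstream members the ratio of mmu-mir-450b to both mir-450a hairpins was 5.46 and 5.59 in Ang OE and 5.88 and 5.59 in Ctrl, which overlap, but 4.82 and 4.40 in CC, below both. All reads of the members matched the genome: none of the 84 counts of a member in a library differed when genome-matched reads alone were taken.

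**Figure D3:**
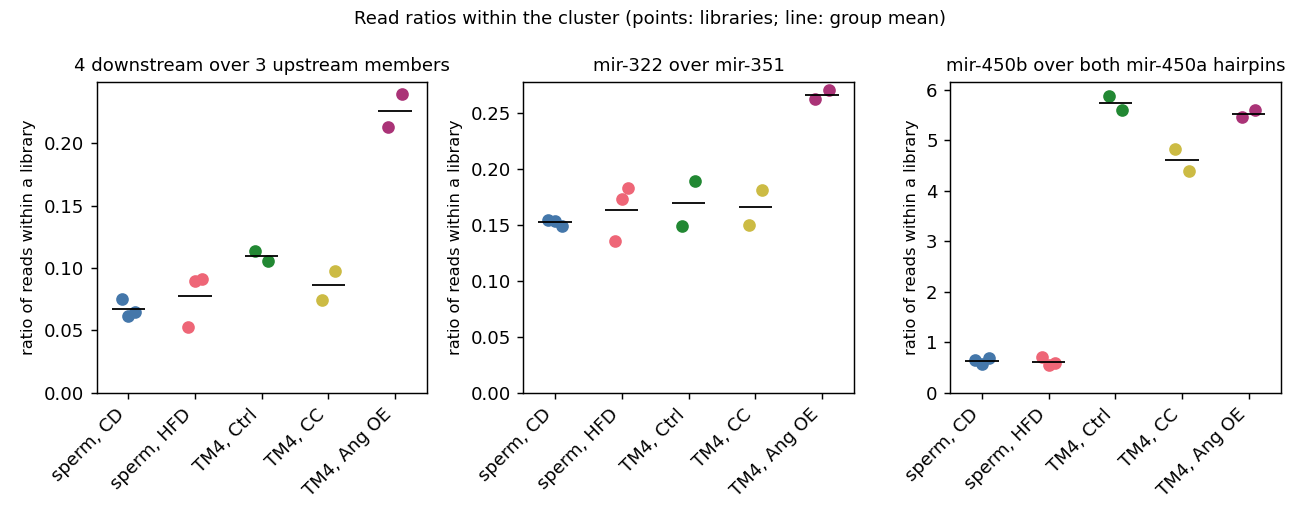
Ratio of reads within each library for the 4 downstream over the 3 upstream members, mmu-mir-322 over mmu-mir-351, and mmu-mir-450b over both mir-450a hairpins, by group (points, libraries; line, group mean). Ang OE libraries are highest in the first 2 panels, at 0.213 and 0.239 and at 0.262 and 0.271, and the third separates sperm, at up to 0.71, from TM4 cells, at 4.40 or more.

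Correlations between members over the 6 libraries of a kind describe the same pattern. They share libraries and depth, they include the differences between groups, and the mir-450a pair shares reads. Over the TM4 libraries the 6 pairs of downstream members had Pearson's r of 0.96 to 1.00 (Spearman's rho 0.94 to 1). For the 12 pairs of an upstream with a downstream member r ran from -0.81 to 0.69, with 8 of 12 below 0, and the 4 above 0 were those of mmu-mir-322. mmu-mir-351 had -0.81 with mmu-mir-542 and -0.30 with mmu-mir-322, and 0.68 with mmu-mir-503. In the TM4 libraries mmu-mir-322 thus varied with the downstream members more than with its nearest neighbours, with r of 0.61 to 0.69 against 0.11 for mmu-mir-503.

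Over the sperm libraries 19 of 21 pairs had a positive r, with a median of 0.56. The 2 negative pairs were mmu-mir-542 with mmu-mir-503 and with mmu-mir-351, both at -0.39. Counts of 17 to 109 reads in mmu-mir-503, mmu-mir-542 and the mir-450 hairpins leave these values imprecise.

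The seeds allow the cluster's part in its seed families to be given. miR-322-5p shares its seed with products of mir-15a, mir-15b, mir-16-1, mir-16-2, mir-195a, mir-195b and mir-497a, miRNAs known to repress genes of the cell cycle, and miR-503-5p was counted with them although its seed differs at 1 position. The list also held mir-497b, whose RefSeq product does not carry this seed and which had at most 14 reads in a library. Of the further miRNAs that RefSeq gives with these seeds, mir-6353 and mir-6367 had at most 1 and 3 reads in a library and were left out of the families, and the others were not used here. mmu-mir-322 and mmu-mir-503 gave 0.56% to 1.04% of the reads of this family in sperm libraries. They gave 4.11% and 4.05% in Ctrl, 3.45% and 3.50% in CC, and 5.90% and 6.08% in Ang OE. The Ang OE share was the highest and the CC share the lowest of the TM4 groups, without overlap and outside each other's 95% Wilson intervals, which cover counting error only. In Ang OE the family as a whole was lower, 12316 ± 1399 CPM against 17423 ± 2373 CPM in Ctrl (SD, n = 2 each).

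mmu-mir-351 gave 2.96% to 4.26% of the reads that it and the mir-125 hairpins had in sperm. It gave 18.7% and 17.1% in Ctrl, 17.3% and 16.2% in CC, and 21.1% and 21.0% in Ang OE. Ctrl and CC overlapped and Ang OE lay above both, although the level of mmu-mir-351 itself was lowest there. The family had 12515 ± 1423 CPM in Ang OE against 21907 ± 650 CPM in Ctrl.

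**Figure D4:**
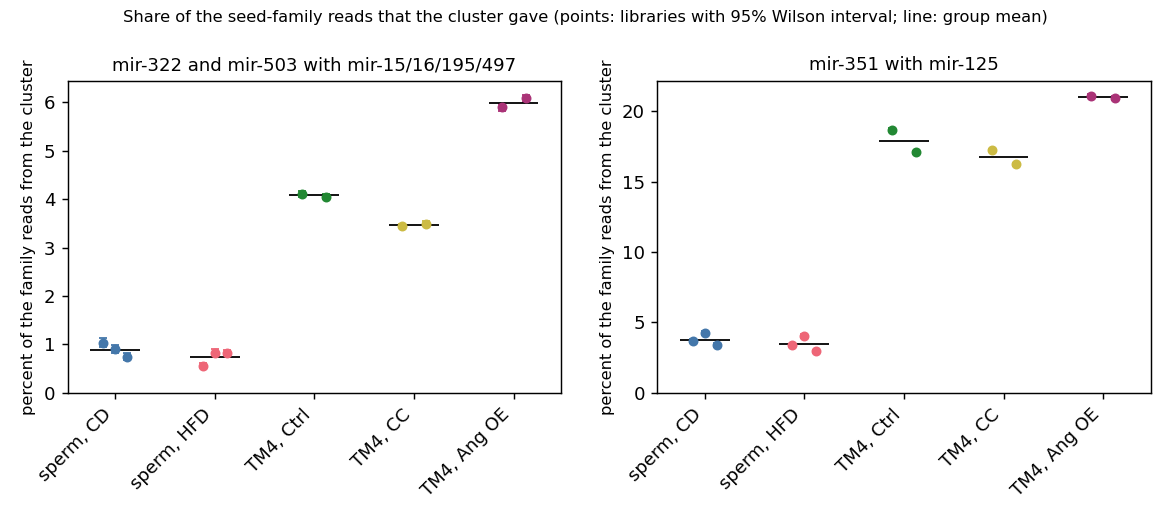
Percent of seed-family reads that came from the cluster in each library, for mmu-mir-322 and mmu-mir-503 within the family of mir-15, mir-16, mir-195 and mir-497 and for mmu-mir-351 within the mir-125 family (points, libraries with 95% Wilson interval; line, group mean). Sperm libraries lie at or below 1.04% and 4.26%, and Ang OE libraries are the highest, at 5.90% and 6.08% and at 21.1% and 21.0%.

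The seed sharers outside the cluster did not move as one either. Of the 6 that were tested with mmu-mir-322 and mmu-mir-503, in Ang OE only mmu-mir-15a was called higher (log2 fold change 0.58 ± 0.12) and only mmu-mir-15b lower (-1.01 ± 0.11), with a median of -0.14, where 24.2% of all hairpins were called higher and 14.1% lower. In CC and under the HFD edgeR called 0 of 6. The 3 mir-125 hairpins were all called lower in Ang OE (14.1% of all hairpins), with -0.94 ± 0.12 for mmu-mir-125b-2, -0.52 ± 0.10 for mmu-mir-125b-1 and -0.47 ± 0.11 for mmu-mir-125a, the direction of mmu-mir-351. Reads of their identical or near-identical arms may be divided among hairpins, so the values of mmu-mir-125b-1 and mmu-mir-125b-2, and of mmu-mir-16-1 and mmu-mir-16-2, are uncertain. In CC and under the HFD 0 of 3 were called. Between Ctrl cells and CD sperm, where 36.4% of all hairpins were called higher and 40.7% lower, 4 of 6 sharers of mmu-mir-322 were called higher and mmu-mir-195a lower (-1.09 ± 0.15), with mmu-mir-15b at 1.85 ± 0.19 the largest, and of the mir-125 hairpins mmu-mir-125b-1 (1.15 ± 0.11) and mmu-mir-125b-2 (0.30 ± 0.12) were called higher and mmu-mir-125a (-0.44 ± 0.12) lower. By mean CPM, however, mmu-mir-195a stood at 292 in Ctrl against 248 in CD, and mmu-mir-125a at 5230 against 2814. The direction of mmu-mir-195a and mmu-mir-125a between Ctrl cells and CD sperm thus depends on scaling. In that comparison mmu-mir-322 had 2.93 and mmu-mir-351 2.79, while the tested hairpins that share their seeds reached 1.85 and 1.15.

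The hairpins whose levels were most like the summed cluster over the 12 libraries, by Pearson's r of log2(CPM + 1) among 256 hairpins with a mean of at least 10 CPM, were mmu-mir-365-1 (0.998), mmu-mir-365-2 (0.997), mmu-mir-17 (0.997), mmu-mir-18a (0.996) and mmu-mir-298 (0.996). Such values rest mostly on the distance between sperm and TM4 cells: mmu-mir-298, for example, stood at 22.5 CPM in CD sperm and 2226 CPM in Ctrl cells. When each library was expressed as its deviation from the group mean, the most similar were mmu-mir-1981 (0.859), mmu-mir-187 (0.795), mmu-mir-298 (0.772), mmu-mir-652 (0.736) and mmu-mir-3535 (0.730). Of these only mmu-mir-298 was on both lists. In the TM4 groups of 2 libraries the deviations mirror each other, so these highest of 256 values rest on few independent libraries.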

How the data were processed

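Small RNA libraries of sperm (3 CD, 3 HFD) and TM4 cells (2 each Ctrl, CC and Ang OE) were grouped by the sample labels. The authors trimmed reads (FastQC 0.12.0, Trimmomatic 0.40, per the submitters' processing notes), kept 15 to 45 nt and annotated them with SPORTS1.1, allowing 1 mismatch, with mm10 named as the build. The tables deposited by the authors hold estimated counts per hairpin, in which a read that matches several hairpins is divided, and no normalization. Genome-matched and unmatched reads were added here (Python 3.11.15, pandas 2.3.3, numpy 2.4.6, scipy 1.17.1).

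Counts were rounded, and hairpins that reached 10 reads in 3 or more libraries (sperm) or 2 or more (comparisons with TM4 cells) went into edgeR (version 4.0.16, R 4.3.3; quasi-likelihood, TMM, Benjamini-Hochberg over all hairpins tested, called at an adjusted p under 0.05). TM4 groups shared 1 model, so CC and Ang OE were compared with the same Ctrl libraries. The edgeR fits were checked on simulated counts. DESeq2 1.42.0, ComBat-seq (sva 3.50.0), other library sizes, filters and left-out libraries were alternatives. Poisson and Wilson intervals (95%) cover counting error only.

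The members and the lists of seed sharers, other X-linked clusters and cell type markers were chosen with earlier results of these data known. Hairpins named are the members, the 5 most like the summed cluster by each of 2 correlations, and up to 4 called hairpins per list and comparison with the largest change. The authors corrected cell line batches with ComBat-seq, but the batches are not named.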

Additional observations from a re-analysis of the deposited data

How the results depend on the processing

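Over all alternatives, the 4 downstream members were called higher in Ang OE and all 7 higher in Ctrl cells than in CD sperm. In the alternative that added the mir-450a hairpins, this holds for their sum. No member was called under the HFD, where signs turned: mmu-mir-503 had 0.014 with the total miRNA reads and 0.094 with clean reads without rRNA, and -0.23 to 0.21 when a library was left out; mmu-mir-450a-2 had 0.031 with clean reads without rRNA and -0.32 to 0.15 when a library was left out; mmu-mir-542 had -0.11 to 0.39 and mmu-mir-450a-1 -0.36 to 0.054 when a library was left out. In CC, 2 members were called lower by DESeq2 and after ComBat-seq, where 11 and 19 of 533 hairpins were called lower. When a library was left out in CC or Ctrl, mmu-mir-351 had -0.30 to 0.018 and mmu-mir-322 -0.33 to -0.011. In Ang OE, 2 members were called lower with the total miRNA reads and 0 with no filter, where 139 of 533 and 72 of 877 hairpins were called lower. Without Ctrl replicate 1, Ctrl replicate 2 or Ang OE replicate 2, mmu-mir-351 had -0.29, -0.30 and -0.24, and without Ang OE replicate 1 it had -0.47. The cause was not tested. Same-numbered replicates correlated at -0.32, -0.25 and 0.05 in sperm, -0.01 for Ctrl with CC, -0.16 for Ctrl with Ang OE and 0.22 for CC with Ang OE in their deviations from the group means; the labels tie the numbers to no shared culture or day, and the numbers were not taken to pair samples. With the replicate number as a block, edgeR called 0 hairpins under the HFD, 35 in CC and 222 in Ang OE, against 0, 22 and 204 without it, and members called were 0, 1 and 6. In a model of Ctrl and Ang OE alone, the crossed pairing, added after seeing the data, gave 130 higher and 99 lower hairpins, and the block by number 98 and 63, with 4 members higher and 0 lower. mmu-mir-503 had 17 to 34 reads per sperm library and an SE of 0.31 for its log2 fold change under the HFD.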

Other observations

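Other miRNA clusters of the X chromosome were listed beside the members: 16 hairpins from the clusters of mir-106a and mir-363, of mir-221 and mir-222, of mir-188 and mir-532, and of mir-224 and mir-452, of which 12 were tested within TM4 cells. In Ang OE edgeR called 5 of 12 lower, where it called 14.1% of all hairpins lower, among them mmu-mir-500 (-1.08 ± 0.14) and mmu-mir-222 (-0.61 ± 0.10). It called 3 of 12 higher, where it called 24.2% of all hairpins higher. One of these, mmu-mir-452, at 0.45 CPM in Ang OE against 0.064 CPM in Ctrl, passed the filter on reads only through the Ang OE libraries, so that call follows from the filter. mmu-mir-188 was called higher (0.61 ± 0.15), so mmu-mir-188 and mmu-mir-500, which belong to a single cluster, had opposite signs. In CC, where edgeR called 2.25% of all hairpins higher and 1.88% lower, and under the HFD, where it called 0% in either direction, it called 0 of 12. Between Ctrl cells and CD sperm edgeR called 9 of 14 higher and 4 of 14 lower, where it called 36.4% of all hairpins higher and 40.7% lower. Of these, mmu-mir-106a and mmu-mir-188 passed the filter only through the Ctrl libraries, and mmu-mir-20b, mmu-mir-363 and mmu-mir-452 had 0 to 2 reads in each Ctrl library. Among those counted in both groups, mmu-mir-222 was called higher (3.05 ± 0.15), at 3469 against 165 CPM, and mmu-mir-224 lower (-5.20 ± 0.27), at 0.99 against 14.6 CPM.

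Markers of other cells moved in the same comparisons as the members. In Ang OE edgeR called 24.2% of all hairpins higher and 14.1% lower. There the germ cell hairpins mmu-mir-34c (1.26 ± 0.10), mmu-mir-449a (0.88 ± 0.15) and mmu-mir-34b (0.55 ± 0.13) were called higher. So was mmu-mir-871 (1.66 ± 0.62), at only 0.50 against 0.19 CPM in Ctrl, which makes 4 of 4 tested. Of the 5 tested muscle hairpins, mmu-mir-143 (1.38 ± 0.16), mmu-mir-145a (0.40 ± 0.11) and mmu-mir-206 (0.84 ± 0.26) were called higher. The other tested muscle hairpins, mmu-mir-133a-1 and mmu-mir-133a-2, had -1.40 ± 0.83 each and were not called, at 0.091 against 0.31 CPM. Among the mesenchymal hairpins mmu-mir-199b was called higher (0.40 ± 0.10) and mmu-mir-214 lower (-0.34 ± 0.11). Of the red blood cell hairpins mmu-mir-486a and mmu-mir-486b were called lower in Ang OE (-0.38 ± 0.10 each) and in CC (-0.54 ± 0.10 each). mmu-mir-206 was called higher in CC (1.16 ± 0.25), at 4.53 against 2.02 CPM in Ctrl. In CC edgeR called 2.25% of all hairpins higher and 1.88% lower. Between Ctrl cells and CD sperm, where 36.4% of all hairpins were called higher and 40.7% lower, the 4 mesenchymal hairpins were called higher. Of the markers with 10 or more reads in every CD and Ctrl library, those called lower were mmu-mir-34c (-2.55 ± 0.22), mmu-mir-34b (-3.73 ± 0.23) and mmu-mir-449a (-4.97 ± 0.28) of the germ cell hairpins, mmu-mir-141 (-13.55 ± 0.25) and mmu-mir-200c (-12.44 ± 0.30) of the epithelial, mmu-mir-486a and mmu-mir-486b (-4.71 ± 0.23 each) of the red blood cell, mmu-mir-142a (-9.87 ± 0.23) and mmu-mir-150 (-6.31 ± 0.33) of the white blood cell hairpins, and mmu-mir-143 (-1.05 ± 0.20) of the muscle hairpins, while mmu-mir-145a (0.18 ± 0.15) was not called. By mean CPM, however, mmu-mir-143 stood at 51449 in Ctrl against 41998 in CD, and mmu-mir-145a at 1192 against 417. The direction of mmu-mir-143 thus depends on scaling. The other listed germ cell, epithelial, blood cell and muscle hairpins, except mmu-mir-206, had under 10 reads in at least 1 Ctrl library. They entered that comparison only through the CD libraries, and mmu-mir-206 only through the Ctrl libraries, at 2.02 against 0.082 CPM. Their calls and that of mmu-mir-206 are therefore not counted here. The part of these markers in the members' values was not tested.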
